A study of Rattus norvegicus with 24 samples.

Results

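The probes described here are those of the rat major histocompatibility complex, named RT1, together with the genes that cut, carry and load the peptides its products display. They were chosen by name: every non-control probe whose gene symbol begins with RT1-, and the probes of B2m, Tap1, Tap2, Tapbp, Psmb8, Psmb9, Psmb10 and Cd74. Of the 41012 probes on the array, 60 qualified, for 42 of the array's 35527 gene names. They comprised 36 class I probes, 12 class II probes, 11 probes of processing genes and 1 probe named RT1-Ke4, which is now called Slc39a7, a zinc transporter whose gene lies within the complex.

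MHC class I molecules sit on nearly all cells as a heavy chain paired with beta-2 microglobulin (B2m), and display peptides from inside the cell to CD8+ T cells. Those peptides are cut by the immunoproteasome (Psmb8, Psmb9, Psmb10), carried into the endoplasmic reticulum by the transporter Tap1-Tap2 and loaded with the help of tapasin (Tapbp). Class II molecules are made by antigen-presenting cells, where the invariant chain Cd74 holds their groove until RT1-DM exchanges it for a peptide from outside the cell. In the brain, class I genes are also expressed by neurons, where they are known for roles in synapse refinement, whereas class II belongs mainly to microglia and to macrophages at the brain's borders. The RT1 class I genes are numerous, closely alike and differ between rat haplotypes.

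The study measured RNA of male Wistar rats, 10 weeks old and 300 to 350 g, 40 minutes after 1 intraperitoneal injection of saline (3 rats) or of MK-801, which blocks the open channel of the NMDA receptor, at 0.08 mg/kg (low dose) or 0.16 mg/kg (high dose). The treated groups together held 6 rats. Hypothalamus, hippocampus, amygdala, midbrain, cerebral cortex and ventral striatum were dissected, and for each of them RNA of each dose was set against saline RNA on 2 two-colour arrays with the dyes exchanged, 24 arrays or 12 dye swaps in all. Which rats a given array holds, and whether their RNA was pooled, is not given in the labels. Both doses were set against RNA from the group of 3 saline rats. Whether both used RNA of the same rats within that group is not given. The 6 regions come from the same 9 rats. Wistar is an outbred strain, so a difference in RT1 haplotype or cell makeup between the sets of rats cannot be told apart from an effect of the drug, and such a difference would recur in every region. P-values here measure the spread between regional values of these dye swaps.

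Between 55.2% and 78.5% of an array's probes passed the scanner software's test of signal over background in each channel. The markers fixed for striatal neurons were highest in the ventral striatum for 9 of 9 probes, and those of midbrain monoamine neurons in the midbrain for 5 of 5. Of 8 probes for hypothalamic peptides, 3 were highest in the hypothalamus. Dye bias was large: after each ratio was turned to MK-801 over saline, the 2 arrays of a dye swap correlated at -0.51 to -0.13 over all probes and at -0.01 to 0.69 over the member probes that were kept, so single arrays were not read alone. All changes below are log2 ratios of MK-801 over saline, as the mean of a dye swap, and ± is the SD over regions.

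Of the 60 probes, 46 passed the requirement of a signal well above background on at least 12 arrays: 27 of class I, 7 of class II, 11 of processing genes and RT1-Ke4. The 14 others had only a bound. They were the class I probes of RT1-A3, RT1-CE6, RT1-M2, RT1-M4, RT1-M10-1 and RT1-T24-2, 1 probe each of RT1-CE5, RT1-M6-2 and RT1-T18, both probes of RT1-Ba, and probes of RT1-DOa, RT1-DOb and RT1-Db1. Those nearest the limit were RT1-T18 probe P358358, well above background on 11 arrays and left out, and RT1-Da probe P367688, on 13 arrays and kept. Probe names are shortened from the array's own (A_44_P274061 becomes P274061).

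The sequences below are the 60-base array probes at the centre of the class I result, printed because the 2 class I probes with the lowest ratios share one stretch and 3 others carry it exactly or with 1 letter changed. The stretch, GACTCCAACATGGAAA, is the longest run common to those lowest probes, RT1-CE3 and RT1-CE16, and it was therefore chosen after the values were seen. Capitals mark the letters of each probe that match it. Low ratios were not limited to the stretch: RT1-Aw2 P196401, next lowest at -0.47, differs from it by 6 letters.
RT1-CE3 P274061: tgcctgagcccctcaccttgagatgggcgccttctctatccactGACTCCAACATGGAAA
RT1-CE16 P867246: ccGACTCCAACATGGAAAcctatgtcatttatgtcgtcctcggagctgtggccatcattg
RT1-CE4 P440514: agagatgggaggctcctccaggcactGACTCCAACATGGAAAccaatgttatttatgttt
RT1-A2 P184753: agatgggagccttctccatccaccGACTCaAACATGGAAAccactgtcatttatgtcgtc
RT1-CE2 P107372: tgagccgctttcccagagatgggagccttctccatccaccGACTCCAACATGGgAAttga
RT1-S3 P128151: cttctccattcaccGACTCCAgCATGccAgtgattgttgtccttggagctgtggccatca

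RT1-A2 differs from the stretch by C6A and RT1-CE2 by A14G, with positions counted from 1 at the 5′ end of the stretch and the stretch's base first. Of all 41012 probe sequences, 3 held the stretch exactly and 5, or 0.0122%, held it with at most 1 letter changed. All 5 were members (RT1-CE3, RT1-CE16, RT1-CE4, RT1-A2 and RT1-CE2), and their ratios over both doses ran from -0.57 to -0.26 with a median of -0.40. RT1-CE3 (-0.57) and RT1-CE16 (-0.53) defined the stretch because they were lowest, so the low end of this group was fixed by that choice. The other 3 had -0.26 (RT1-CE4), -0.40 (RT1-A2) and -0.40 (RT1-CE2). The 21 class I probes with more than 4 letters changed had a median of -0.11 and ran from -0.47 to 0.25, and 15 of them lay below 0. RT1-S3 probe P128151, with 4 letters changed, had -0.39. A match that loose is not particular to the members: 197 probes of the array, or 0.48%, held the stretch with at most 4 letters changed. Of these, 6 were members. These counts describe the probes; a shared stretch can bind transcripts of several RT1 genes, so a ratio cannot be assigned to 1 gene of the family.

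In the rat assembly rn3 named in the file headers, the RT1-CE3 probe lies on chr20:3553165-3553351 and the RT1-CE2 probe on chr20:3577638-3577791, both on the minus strand. The RT1-A2 probe P184753 lies on chr20:5024291-5024444 on the plus strand. Each of these 60-base probes spans 154 to 187 bases of genome, so its match has a gap within it. The RT1-CE16 probe matched an unplaced piece of chromosome 20. Exon and UTR annotation of that assembly was not used here.

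Over both doses, class I probes were lower in MK-801 RNA and class II and processing probes lay near 0. These ratios led to the choice of the genes and are given as a description, with no test of their own. Of 27 class I probes, 21 lay below 0 with a median of -0.14, against a median of 0.00 over all 27267 probes tested. The median was 0.01 for 7 class II probes and -0.03 for 11 processing probes. Under the call used across the whole array (limma, Benjamini-Hochberg adjusted p below 0.05), 15 class I probes were lower and 2 higher, 1 class II probe was lower and no processing probe was called, although 3 processing probes had an unadjusted p below 0.05. Over all probes, 1.17% were called lower and 1.29% higher (2.46% in all). Lower in every region measured were 15 class I probes, 1 class II probe and 1 processing probe, against 4.64% of all probes. Beside these ratios, the summed level of 12 endothelial probes was below saline in 10 of 12 dye swaps (-0.17 to 0.10), and 1 of the 12, that of the VEGF receptor Kdr, was called lower over both doses (-0.24 ± 0.12, n = 6 regions, limma adjusted p = 0.0035). Over both doses the median of the 12 endothelial probes was -0.02, and 2 of them had an unadjusted p below 0.05 in limma. The part of endothelial cells in the class I values was not tested.

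**Figure D1:**
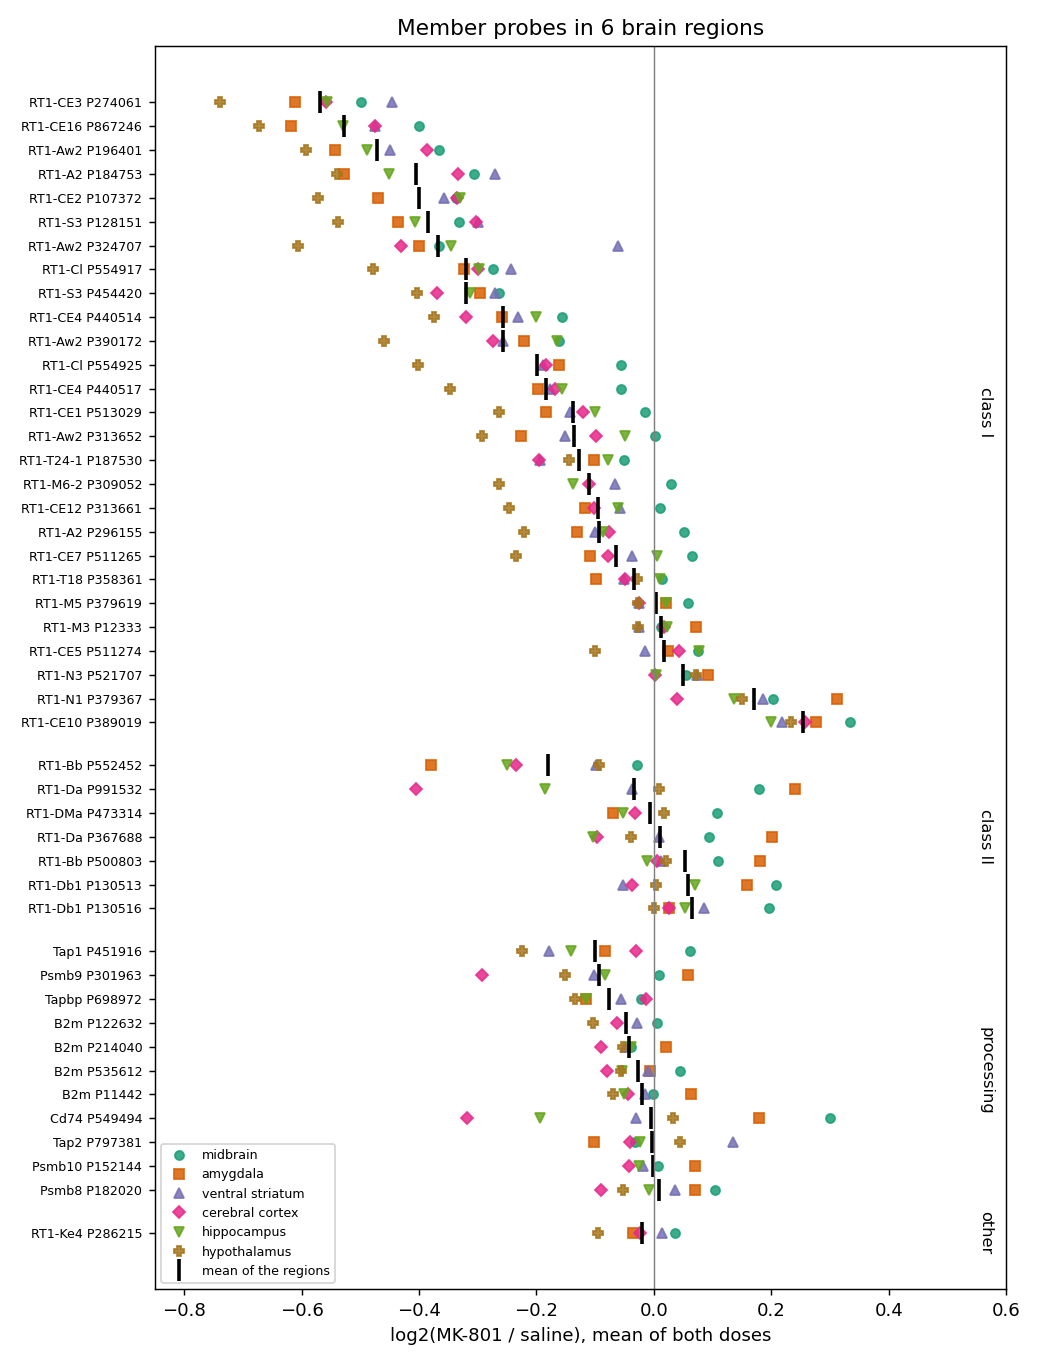
Log2 ratio of MK-801 over saline (x axis, mean of both doses) for the 46 member probes that passed the filter (y axis), with 1 point per brain region and a black bar at the mean of the regions. Class I probes run from -0.57 for RT1-CE3 to 0.25 for RT1-CE10, while the means of class II and processing probes lie between -0.18 and 0.06.

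RT1-CE3, a class I gene of the RT1-C/E region, had the lowest ratio. At the low dose its values were -0.75 in midbrain, -0.81 in amygdala, -0.61 in ventral striatum, -0.78 in cerebral cortex, -0.60 in hippocampus and -0.87 in hypothalamus. At the high dose the same regions had -0.25, -0.41, -0.28, -0.34, -0.51 and -0.60. All 24 arrays were below 0, and in each region the low dose was further below saline than the high dose. The mean over both doses was -0.57 ± 0.10 (n = 6 regions), or 0.674 of the saline level.

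RT1-CE16, from the same family, had -0.26, -0.47, -0.36, -0.26, -0.51 and -0.59 at the high dose in the same order of regions, and -0.54, -0.77, -0.59, -0.69, -0.54 and -0.75 at the low dose. Its 24 arrays also all lay below 0, the closest to 0 at -0.01. RT1-CE2, which shares a run of 29 letters with the RT1-A2 probe P184753, had -0.40 ± 0.10, the same mean as that probe (-0.40 ± 0.12).

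RT1-A2 is the classical class I gene of the RT1-A region, and its probes disagreed. The probe with the shared stretch, P184753, had high-dose values of -0.19, -0.51, -0.23, -0.23, -0.50 and -0.57 and low-dose values of -0.42, -0.54, -0.31, -0.44, -0.40 and -0.51. The other probe, P296155, starts 19 bases before the end of the first and covers the letters downstream, here with the shared bases in capitals.
RT1-A2 P296155: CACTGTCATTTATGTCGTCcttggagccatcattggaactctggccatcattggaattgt

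That probe had -0.06, -0.30, -0.27, -0.15, -0.32 and -0.36 at the high dose but 0.16, 0.04, 0.07, 0.00, 0.15 and -0.09 at the low dose. The overlapping RT1-A2 probes thus read -0.44 and 0.05 at the low dose, a difference of -0.49 ± 0.09 that had the same sign in all 6 regions, and -0.37 and -0.24 at the high dose. Both probes were well above background on all 24 arrays.

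RT1-Aw2, a class I name that the reference used here did not pair with a current gene, had 4 probes with means of -0.47 ± 0.09, -0.37 ± 0.18, -0.26 ± 0.11 and -0.14 ± 0.11. They match 3 sites far apart on chromosome 20 and an unplaced piece of it, so they need not read a single gene. RT1-S3, a nonclassical class I gene, had 2 probes that lie 2057 bases apart, with -0.39 ± 0.09 and -0.32 ± 0.06, below 0 in all 6 regions by both. The probes of RT1-Cl had -0.32 ± 0.08 (P554917) and -0.20 ± 0.13 (P554925, n = 5 regions), a difference of -0.13 ± 0.07, and the second also matches RT1-CE5. The RT1-CE5 probe that passed the filter, P511274, had 0.02 ± 0.07. The probes of RT1-CE4 overlap by 6 bases and had -0.26 (P440514) and -0.18 (P440517), a difference of -0.07 ± 0.05. The first was below 0 on all 24 arrays. The second was below 0 on 15 of 24, and every array above 0 had MK-801 in Cy3.

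RT1-CE1 and RT1-CE12 share a run of 27 letters, in capitals, and had -0.14 ± 0.08 (below 0 in 6 of 6 regions) and -0.10 ± 0.09 (5 of 6). On single arrays they were below 0 on 17 and 14 of 24, and every array above 0 had MK-801 in Cy3.
RT1-CE1 P513029: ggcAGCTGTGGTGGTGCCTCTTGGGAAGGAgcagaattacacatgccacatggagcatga
RT1-CE12 P313661: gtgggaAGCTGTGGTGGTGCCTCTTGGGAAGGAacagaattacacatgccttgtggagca

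Other class I probes were near 0 or above it. RT1-M3, which presents formylated bacterial peptides, had 0.01 ± 0.04, RT1-M5 0.00 ± 0.04 and RT1-N3 0.05 ± 0.04. Also not called over both doses were RT1-T18 P358361 (-0.03 ± 0.04), RT1-CE7 (-0.06 ± 0.10) and RT1-M6-2 P309052 (-0.11 ± 0.11, n = 5 regions). RT1-CE10 and RT1-N1, named here after their values were seen, were the class I probes above 0 in every region over both doses by the most. RT1-CE10 had 0.29, 0.33, 0.13, 0.28, 0.11 and 0.12 at the high dose and 0.38, 0.22, 0.30, 0.24, 0.29 and 0.34 at the low dose, a mean of 0.25 ± 0.05. Its single arrays depended strongly on the dye. The 4 of 24 arrays below 0 all had MK-801 in Cy5, and midbrain at the high dose read -0.18 in Cy5 and 0.76 in Cy3. RT1-N1 had 0.17 ± 0.09. The RT1-CE10 probe shared 22 letters (capitals) with the RT1-A3 probe, which was well above background on 3 arrays.
RT1-CE10 P389019: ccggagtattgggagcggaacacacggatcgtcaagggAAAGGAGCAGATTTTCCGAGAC
RT1-A3 P501234: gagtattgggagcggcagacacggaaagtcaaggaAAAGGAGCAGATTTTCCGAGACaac

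Among 351 pairs of the 27 class I probes, 17 pairs shared a run of 15 letters or more. Sharing letters did not fix the reading: RT1-A2 P184753 and RT1-CE2 differed by 0.00, while RT1-A2 P296155 and RT1-CE16 share 18 letters and differed by 0.43.

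**Figure D2:**
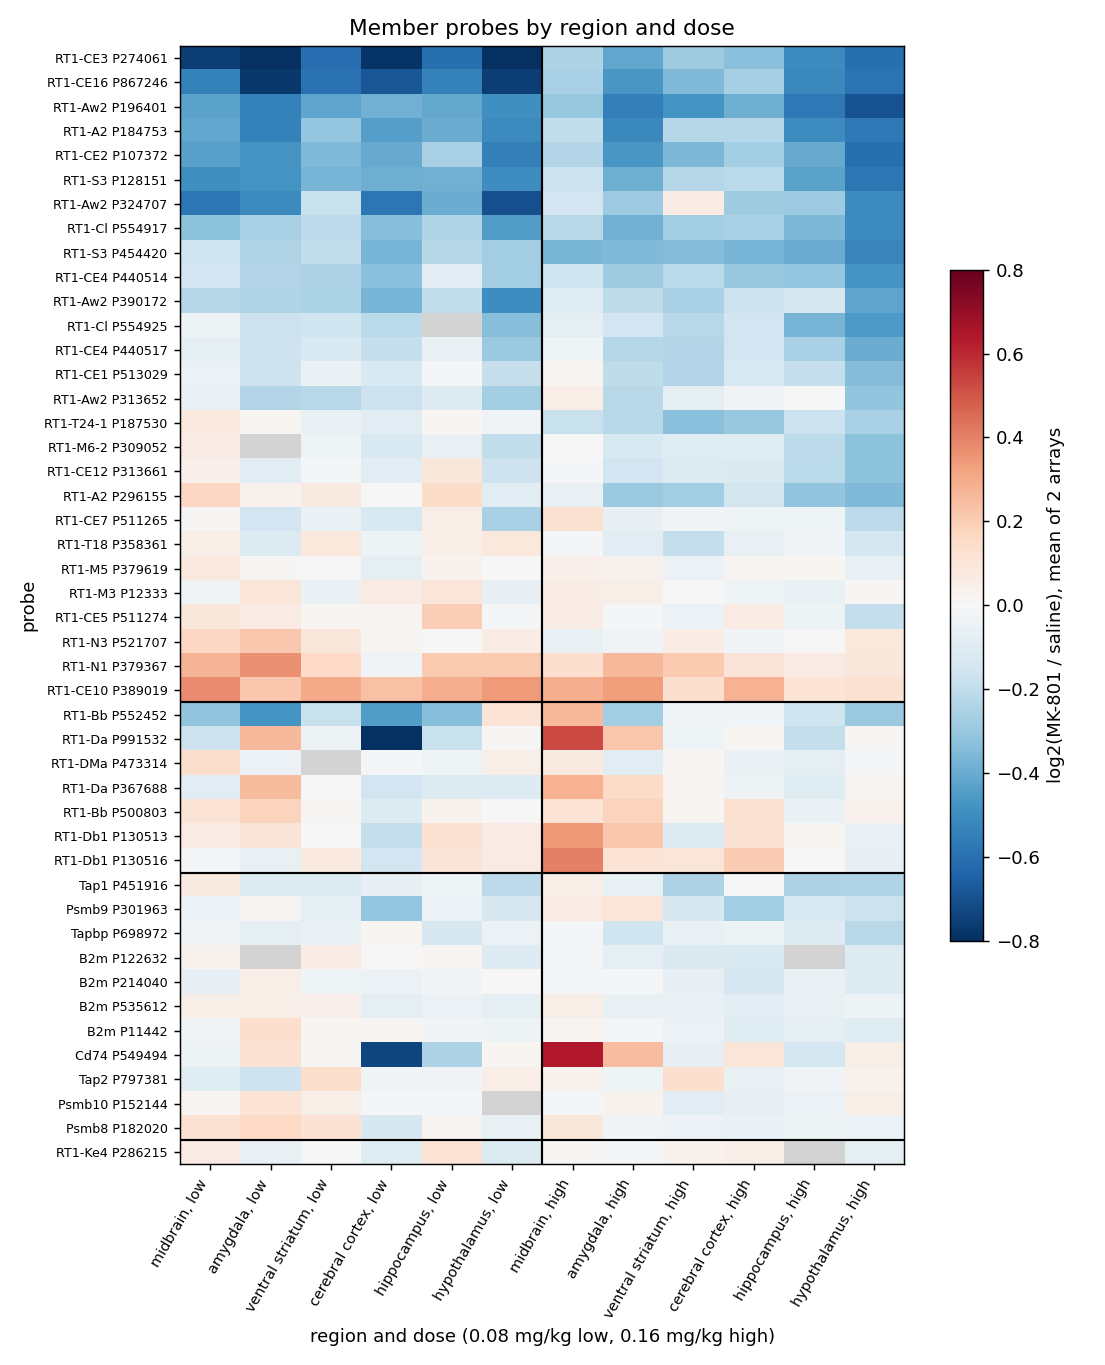
Log2 ratio of MK-801 over saline (colour) for the 46 member probes (rows, grouped as class I, class II, processing and RT1-Ke4) in the 12 dye swaps (columns, low dose at left and high dose at right; grey where an array spot was removed). Class I rows are blue at both doses from RT1-CE3 to RT1-Cl P554917, except RT1-Aw2 P324707 in ventral striatum at the high dose (0.06). Cd74 and RT1-Da P991532 share a red cell in midbrain at the high dose (0.64 and 0.53) and a blue cell in cerebral cortex at the low dose (-0.73 and -0.83).

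Class II probes had no common direction. RT1-Da, the alpha chain of the DR-like class II molecule, had 0.53, 0.22, -0.04, 0.02, -0.19 and 0.01 at the high dose by its brighter probe, P991532, with the regions in the order used for RT1-CE3. At the low dose the values were -0.17, 0.26, -0.04, -0.83, -0.18 and 0.01. The mean was therefore -0.03 ± 0.24, with midbrain at the high dose and cerebral cortex at the low dose far from the rest. RT1-Db1, the matching beta chain, had 0.06 ± 0.11 and 0.06 ± 0.07 by its 2 probes, again with midbrain at the high dose highest (0.35 and 0.40) and cerebral cortex at the low dose lowest (-0.19 and -0.15).

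RT1-Bb, the beta chain of the DQ-like molecule, had 0.05 ± 0.08 by probe P500803 and -0.18 ± 0.13 by probe P552452. The second was the class II probe called lower over both doses, and it was well above background on 18 of 24 arrays. RT1-DMa, the peptide exchange subunit, had -0.01 ± 0.07 (n = 5 regions).

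Processing genes shifted little. B2m, the light chain of class I molecules, had means of -0.02 ± 0.05, -0.05 ± 0.05 (n = 4 regions), -0.04 ± 0.04 and -0.03 ± 0.05 over its 4 probes. Its probe P535612 had 0.04, -0.06, -0.06, -0.09, -0.06 and -0.04 at the high dose and 0.05, 0.05, 0.04, -0.07, -0.05 and -0.07 at the low dose. No value of this probe was beyond 0.10 from 0, but other B2m probes went further. P11442 had 0.14 in amygdala at the low dose, and P214040 had -0.14 in cerebral cortex at the high dose. At the high dose the means of the 4 probes were all below 0, from -0.09 to -0.04, and none was called. The lowest class I heavy chain probes were not matched by a shift of like size in B2m.

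Tap1 and Tap2, the subunits of the peptide transporter, had -0.10 ± 0.10 and 0.00 ± 0.08. Tapbp had -0.08 ± 0.05 and was the processing probe below 0 in all 6 regions. Of the immunoproteasome subunits, Psmb9 had -0.09 ± 0.12, lowest in cerebral cortex at -0.28 (high) and -0.31 (low), and Psmb8 and Psmb10 had 0.01 ± 0.07 and 0.00 ± 0.04. Cd74, the class II invariant chain, had 0.64, 0.24, -0.07, 0.10, -0.14 and 0.05 at the high dose and -0.04, 0.12, 0.01, -0.73, -0.25 and 0.01 at the low dose. Its far values fell in the same dye swaps as those of RT1-Da and RT1-Db1. RT1-Ke4 (Slc39a7) had -0.02 ± 0.05.

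The summed level of 10 probes for meninges and fibroblasts was also furthest from saline in those dye swaps, at 0.78 in midbrain at the high dose and -0.996 in cerebral cortex at the low dose on the log2 scale, within a range of -0.62 to 0.25 in the other 10. The 17 microglia probes had sums between -0.05 and 0.18 in all 12, and the 3 blood leukocyte probes that passed the filter, of 15 on the array, between -0.05 and 0.05. The part of the border cells of the brain in the class II and Cd74 values was not tested. In such bulk RNA, fewer cells of a type and less RNA per cell cannot be told apart.

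At each dose alone, the class I median was -0.22 (high) and -0.15 (low), against 0.00 over all probes at both doses. Of 27 class I probes, 16 were called lower and 2 higher at the high dose, where 0.952% of all probes were called lower and 1.05% higher (2.01% in all). At the low dose 14 were called lower and 2 higher, against 1.23% and 1.19% (2.42% in all). Lower in every region measured were 20 members at the high dose, against 4.33% of all probes, and 15 at the low dose, against 4.25%. Below 0 at both doses were 19 class I probes, 5 were above 0 at both, and 3 were below 0 at the high dose only. No processing probe was called at either dose, with 4 (high) and 2 (low) at an unadjusted p below 0.05 in limma, and of the class II probes RT1-Bb P552452 was called lower at the low dose. These comparisons share the group of saline rats.

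The high dose minus the low dose is a difference that the choice of genes did not use, although both arms still share the group of saline rats. Of 46 members tested, 5 differed between the doses (limma, adjusted p below 0.05), against 1.44% of all probes. All 5 were class I, with 3 higher and 2 lower at the high dose, against 0.833% and 0.612% of all probes. Lower at the high dose in every region measured were 6 members, against 4.12% of all probes. RT1-CE3, RT1-CE16 and RT1-Aw2 P324707 were further below saline at the low dose. RT1-A2 P296155 and RT1-T24-1 were further below at the high dose. No class II or processing probe was called, with 1 of each at an unadjusted p below 0.05 (RT1-Da P991532 and Cd74).

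RT1-CE3 was higher at the high than at the low dose by 0.34 ± 0.15 (n = 6 regions, higher in 6 of 6, limma adjusted p = 0.0018). The difference was 0.50 in midbrain and 0.09 in hippocampus, the largest and the smallest. RT1-CE16 differed by 0.24 ± 0.13 (6 of 6 regions, limma adjusted p = 0.014) and RT1-Aw2 P324707 by 0.25 ± 0.11 (6 of 6, limma adjusted p = 0.0049); with array number as a replicate block, the last was not called (adjusted p = 0.060). The remaining probes with the shared stretch were not called: RT1-CE4 P440514 had -0.07 ± 0.11 (2 of 6 regions higher, limma adjusted p = 0.62), RT1-CE2 had 0.02 ± 0.13 (3 of 6 regions higher, limma adjusted p = 0.91) and RT1-A2 P184753 0.06 ± 0.14 (4 of 6, limma adjusted p = 0.67).

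In the other direction, RT1-A2 P296155 was lower at the high dose by -0.30 ± 0.11 (lower in 6 of 6 regions, limma adjusted p = 0.0014). RT1-T24-1, a class I gene of the RT1-T region, was lower by -0.23 ± 0.03 (6 of 6, limma adjusted p = 0.00094): it had -0.18, -0.22, -0.33, -0.30, -0.17 and -0.26 at the high dose and 0.08, 0.02, -0.06, -0.09, 0.01 and -0.03 at the low dose, with no overlap. RT1-S3 P454420 had -0.15 ± 0.09 (6 of 6, limma adjusted p = 0.071).

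These differences depend on how dye bias is removed. With the scanner's own ratios, RT1-A2 P296155 (-0.31, adjusted p = 0.018) and RT1-T24-1 (-0.27, adjusted p = 0.0084) stayed past the threshold and the 3 others did not (adjusted p = 0.057 for RT1-CE3, 0.086 for RT1-CE16 and 0.25 for RT1-Aw2), with differences of 0.35, 0.25 and 0.22. With median centring in place of loess none of the 5 was called (limma adjusted p from 0.064 to 0.93), although the differences kept their signs: 0.31 for RT1-CE3, 0.20 for RT1-CE16, 0.28 for RT1-Aw2, -0.25 for RT1-T24-1 and -0.32 for RT1-A2. Without array number 1 or 4, which leaves a dose with 1 dye orientation, RT1-T24-1 had -0.06 and -0.07 (limma adjusted p = 0.29 and 0.26), and RT1-A2 P296155 had -0.12 without number 4 (0.089). RT1-CE16 had 0.09 without number 2 and 0.05 without number 3 (0.29 and 0.50), and its call was also lost without amygdala (0.055) or ventral striatum (0.058).

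**Figure D3:**
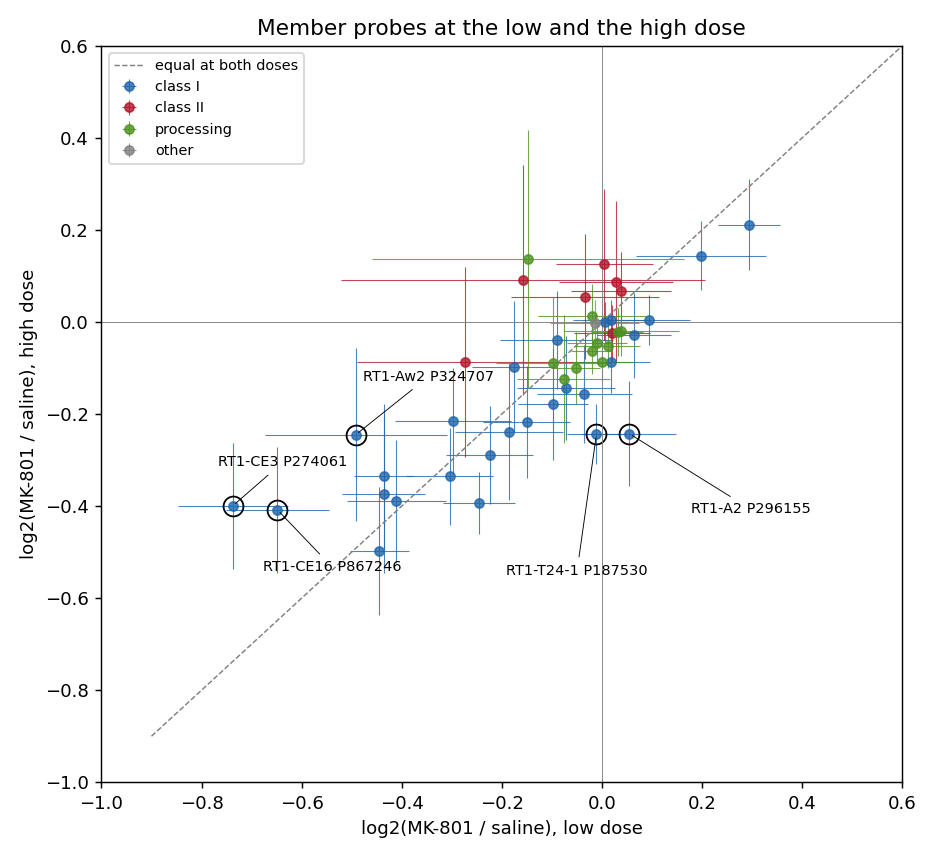
Mean log2 ratio over the regions at the high dose (y axis) against the low dose (x axis) for the 46 member probes, coloured by class, with bars of 1 SD over regions; circles mark the 5 probes that differed between doses. RT1-CE3, RT1-CE16 and RT1-Aw2 P324707 lie above the dashed line of equal values, and RT1-A2 P296155 and RT1-T24-1 lie below it.

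**Figure D4:**
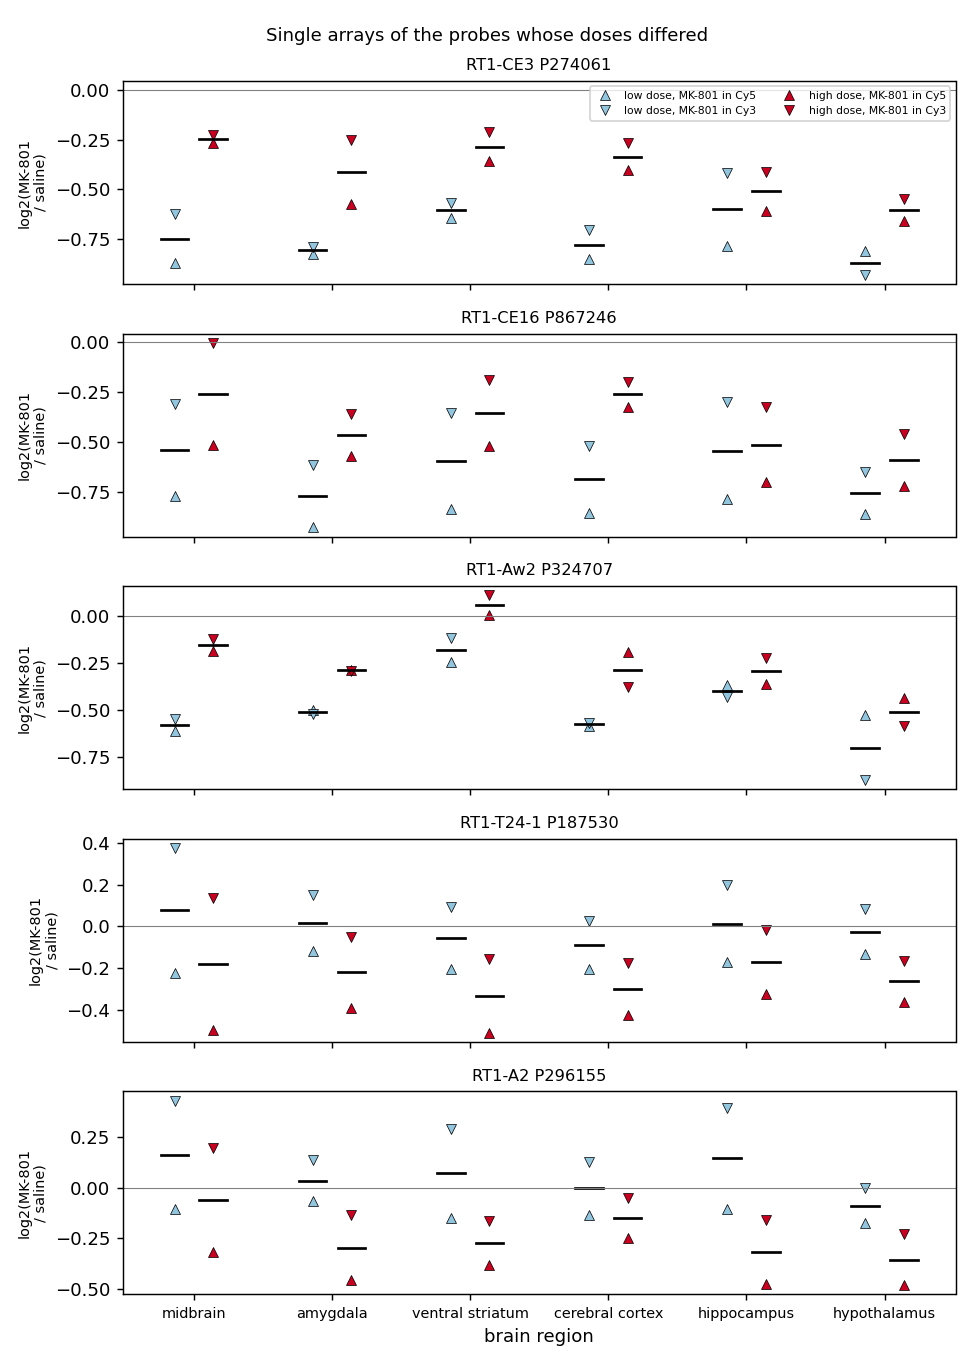
Log2 ratio of MK-801 over saline (y axis) on each of the 24 arrays for the 5 probes that differed between doses, by region (x axis), dose (colour) and dye of the MK-801 RNA (direction of the triangle), with a bar at the mean of each dye swap. For RT1-T24-1 the gap between the dyes is wider than the gap between the doses in every region but the hypothalamus, while every high-dose mean lies below every low-dose mean.

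Markers of other cell types also differed between the doses. All 3 red blood cell probes that passed the filter were higher at the high than at the low dose (median 0.61), with Alas2, the heme synthesis enzyme of red cell precursors, at 0.61 ± 0.09 and Hbb, beta globin, at 0.88 ± 0.26 (n = 6 regions, limma adjusted p = 9e-07 and 2.4e-05). Their summed level was above saline in all 6 regions at the high dose (0.14 to 0.52) and below saline in all 6 at the low dose (-0.80 to -0.16). Of 17 microglia probes, 3 were lower at the high than at the low dose, those of P2ry12, C1qa and C1qc, against 0.612% of all probes. Against saline, 6 of the 17 (C1qa, C1qb, C1qc and P2ry12) were called higher at the low dose, by 0.11 to 0.22, where 1.19% of all probes were, and none at the high dose (2 at an unadjusted p below 0.05 in limma). Their part in the differences of the RT1 probes was not tested.

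Whether all regions shifted equally was tested with both doses as repeat values of a region. Of 40 member probes with all 12 values, 1 was called (2.5%), against 1.18% of all probes, that of RT1-Aw2 P324707. The count depends on the fit. With array number as a replicate block on single arrays, 5 of 46 members were called, against 1.93% of all probes: RT1-Aw2 P324707, Psmb9, RT1-Cl P554925, Cd74 and RT1-Aw2 P390172 (limma adjusted p from 0.0022 to 0.046). With a variance trend, 3 of 40 were called, against 4.01%: both of those RT1-Aw2 probes and Psmb9. At an unadjusted p below 0.05 in the first fit, 19 members (47.5%) differed between regions, against 18.8% of all probes; 13 of the 19 were class I. The design has 2 values per region, so smaller differences between regions can be missed.

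RT1-Aw2 P324707 had -0.06 in ventral striatum and -0.61 in hypothalamus over both doses (F = 13.1, limma adjusted p = 0.019). In ventral striatum its values were 0.06 at the high and -0.18 at the low dose, above those of every other region at the same dose. The call was lost without ventral striatum (adjusted p = 0.25) and without hypothalamus (0.10), and with the scanner's ratios (0.21), and without array number 2 (F = 5.81, 0.33) or 4 (F = 4.41, 0.44).

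The hypothalamus had the lowest value of the 6 regions for 20 of the 25 class I probes tested, and for 13 of the 14 that were below 0 in every region. Midbrain had the highest for 15 of 25. Hypothalamus was lowest for 3 of 9 processing and 1 of 6 class II probes, and midbrain highest for 4 of 9 and 3 of 6. The share of all probes with these extremes was not counted, so the class I counts have no background beside them. The class I median over both doses was -0.29 in hypothalamus, -0.19 in amygdala, -0.17 in cerebral cortex, -0.15 in ventral striatum, -0.12 in hippocampus and -0.05 in midbrain. Class I probes share sequence and arrays, so these counts are not independent. Each region has its own number in the array titles, so a region cannot be told apart from a batch of arrays. Scan day 1 held ventral striatum and cerebral cortex, day 2 midbrain and amygdala, and day 3 hippocampus and hypothalamus. Processing probes ranged from a median of -0.06 in hypothalamus to 0.04 in amygdala, and class II probes from -0.05 in hippocampus to 0.16 in amygdala.

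The saline channel gives the resting level of each probe by region, as mean log2 intensity ± SD over 4 arrays. Levels are compared between regions for 1 probe, not between probes. As far as the labels say, the 4 arrays are technical repeats of the saline rats' RNA. Their SD need not measure the spread between rats. Cd74 was highest in amygdala at 10.28 ± 0.08, then cerebral cortex (9.21 ± 0.12), midbrain (8.65 ± 0.25), hypothalamus (8.53 ± 0.29), hippocampus (8.24 ± 0.14) and ventral striatum (8.05 ± 0.13). Midbrain and hypothalamus were within their spread of each other, and so were hypothalamus and hippocampus. RT1-Da P991532 (9.31 ± 0.35 in amygdala, 7.25 ± 0.31 in ventral striatum) and RT1-Db1 P130513 (8.70 ± 0.11 and 7.53 ± 0.14) had the same highest and lowest regions. RT1-Bb P500803 did not share that order: it was highest in hippocampus (8.27 ± 0.18) and lowest in midbrain (7.11 ± 0.12), or, without scaling between arrays, in ventral striatum. The saline sum of the 10 meninges and fibroblast probes was also highest in amygdala, 16.10 and 16.38 in the 2 dye swaps, and lowest in ventral striatum at the high-dose swap (13.70).

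Class I and B2m levels differed less between regions. The range from the highest to the lowest region had a median of 0.67 over the 27 class I probes, 1.16 over the 7 class II probes and 0.76 over the 11 processing probes. B2m P535612 ran from 14.87 ± 0.29 in amygdala to 14.24 ± 0.09 in cerebral cortex. Cerebral cortex was lowest for 12 class I probes and hypothalamus highest for 9. The order of these smaller ranges depends on the scaling between arrays. Without it, midbrain was highest for 25 of 27 class I probes and for B2m P535612, hypothalamus was highest for 1, and cerebral cortex was lowest for 2. In all, 23 of 46 members kept the same highest region without the scaling, among them Cd74, RT1-Da P991532 and both RT1-Db1 probes with amygdala highest.

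**Figure D5:**
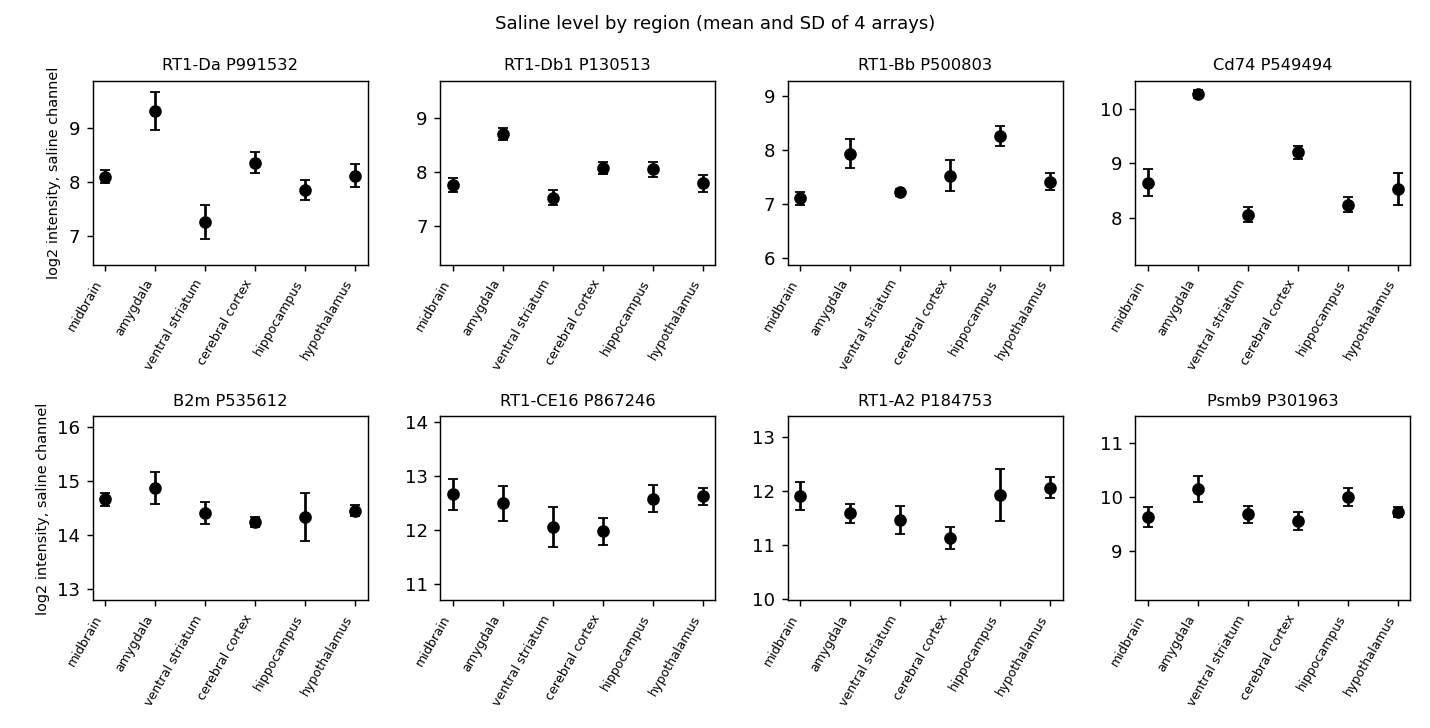
Saline-channel log2 intensity (y axis, 3.4 log2 units high in every panel) in 6 regions (x axis) for 8 member probes, as mean and SD of 4 arrays. Amygdala stands above the other regions for RT1-Da, RT1-Db1 and Cd74, while B2m and RT1-CE16 vary over less than 1 unit.

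The other genes of the pathway were counted from lists. Among 26 probes for regulators of MHC and interferon genes, 2 fell over both doses (limma), Irf7, the master factor of the type I interferon response, by -0.39 ± 0.05 and Nfkb1 by -0.10 ± 0.05 (n = 6 regions, adjusted p = 5.3e-06 and 0.030), where 1.17% of all probes fell. Nlrc5 and Ciita were on that list of regulators but had no probe among the 26 tested. Of 17 probes for peptide loading and cleavage outside the member list, none was called over both doses by limma, with 0 at an unadjusted p below 0.05. Of 31 interferon-induced probes, 17 fell and none rose over both doses (median -0.12, against 1.17% and 1.29% of all probes), with Isg15 at -0.41 ± 0.14 (adjusted p = 0.00033). At the high dose minus the low dose, 9 of them were lower and 1 higher, against 0.612% and 0.833% of all probes.

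Genes that lie within the RT1 region but have other roles gave no common direction: of 82 probes, 2 rose and 2 fell over both doses, where 1.29% and 1.17% of all probes did, with a median of 0.00. Cfb, complement factor B, had -0.16 ± 0.07 and Abhd16a, a lipase, -0.13 ± 0.06 (n = 5 regions); Col11a2, a collagen chain, had 0.18 ± 0.10 and Notch4, an endothelial Notch receptor, 0.09 ± 0.04 (limma adjusted p from 0.0061 to 0.044). Of 5 probes for class I-like genes on other chromosomes, none was called over both doses by limma, with 3 at an unadjusted p below 0.05. At the high dose 1 was called higher, a Procr probe (0.15 ± 0.085, limma adjusted p = 0.040), against 1.05% of all probes. For high minus low, another Procr probe was called higher (0.14 ± 0.03, limma adjusted p = 0.031), against 0.833%.

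Promoters were searched for letters of known MHC elements, from 250 bases before to 50 bases after the start, on both strands, in RefSeq sequences of the GRCr8 assembly; 35 of 39 current member symbols had one. The interferon-stimulated element, searched as GAAA, any 2 bases and GAAA again, was in 6 of 8 processing genes (B2m, Psmb8, Psmb10, Tap1, Tap2 and Tapbp), in 2 of 20 class I genes (RT1-N3 and RT1-S3), in 0 of 7 class II genes and in 3.92% of all promoters. CCAAT was in 7 of 7 class II genes, 14 of 20 class I genes and 37.5% of all. GGGGANNCC, a form of the NF-kappaB site, was in 8 of 20 class I genes, including RT1-A2, RT1-CE3, RT1-CE16 and RT1-CE10, and in 6.16% of all. TGACGNNA was in 1 gene of each class and 7.11% of all. RT1-CE10, which was above 0, and RT1-CE3, which was below, both held CCAAT and GGGGANNCC. A match is a description of the letters, not a site.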

How the data were processed

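Per the labels, total RNA was amplified, labelled with Cy3 or Cy5 and hybridised to Agilent 4x44K rat arrays, and Agilent Feature Extraction 9.5.3.1 made the scanner files, per the submitters' processing notes. The deposited files give spot intensity and background, and the authors' log10 ratio of Cy5 over Cy3, which the deposited series table repeats to within 0.005 wherever the scanner ratio is not 0. From the intensities, background was corrected (normexp, offset 50), loess was applied within each array (limma 3.58.1, R 4.3.3), outlier spots were dropped and spots averaged per probe. Log2 ratios were turned to MK-801 over saline and averaged over each dye swap, which needs both arrays. A probe needed a signal well above background in both colours on 12 of 24 arrays (27690 of 41012 probes did) and 4 of 6 regional values. limma tested regional means against 0, and regions by an F test with dose as a term; p-values were adjusted over all probes tested. Saline levels used Aquantile scaling between arrays. Probe symbols were updated through RefSeq accessions, symbols or synonyms (20100 of 41012 probes matched). The members and lists were chosen with earlier results of these data known. Shown in full are the 8 class I, 5 class II and 8 processing probes with the largest absolute mean and every member called in the tested comparisons; RT1-CE10, RT1-N1, RT1-CE4, RT1-CE1, RT1-CE12, RT1-M3, RT1-M5, RT1-N3, RT1-DMa, RT1-Ke4, Tap2, Psmb10, Cd74 and the further probes of RT1-Aw2 and RT1-S3 were added after their values were seen. The fits were tested on simulated data in which the 12 dye swap values of a probe were drawn independently. Such data lack the correlation between same-numbered arrays given next, so that test does not cover its effect on the calls. Same-numbered arrays share a dye orientation, and their deviations correlated across probes at 0.52 or more in every pair of regions. Alternatives tried were the scanner's ratio, the series table, offset 16, median centring, other filters, a variance trend, leaving out arrays or regions, scan days alone, and array number as a block.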

Additional observations from a re-analysis of the deposited data

Results flagged for a closer look

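RT1-Cl P554917 had -0.48 in hypothalamus over both doses, apart from the other 5 regions, which ran from -0.32 to -0.24; 1 of 46 members had such a regional value, and chance gives about 1 in 20. Between the doses, with high minus low tested directly, RT1-CE3 P274061 differed by 0.34, RT1-CE16 P867246 by 0.24 and RT1-Aw2 P324707 by 0.25, and RT1-T24-1 P187530 by -0.23 and RT1-A2 P296155 by -0.30. Between regions, RT1-Aw2 P324707 had F = 13.1.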

How the results depend on the processing

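Counts are of member probes called (limma, adjusted p below 0.05), against 18 over both doses, 18 at the high dose, 17 at the low dose, 5 for high minus low and 1 between regions. With the scanner's own ratio or the series' table, 2 were called for high minus low and 0 between regions. Median centring gave 10 at the high dose, 0 for high minus low and 0 between regions. Between regions, offset 16 gave 0, a filter on all 24 arrays 2, a variance trend 3, and leaving out ventral striatum or hypothalamus 0 each. Leaving out 1 array number gave 17 to 28 over both doses, 17 to 25 at the high dose, 22 to 23 at the low dose, 13 to 19 for high minus low and 0 to 1 between regions; the dose concerned then has 1 dye orientation, so dye bias enters. With array number as a replicate block on single arrays, 23, 19, 17 and 4 were called in the order above and 5 between regions; RT1-Aw2 P324707 lost its call between doses (adjusted p = 0.060). Scan day 1 alone, with 2 regions, gave 10 at the high dose, 9 at the low dose and 2 for high minus low, day 2 gave 10 over both doses, 11, 8 and 1, and day 3 gave 9 over both doses, 11 at the low dose and 1 for high minus low. The class II median, 0.01, was -0.03 under median centring and 0.00 with offset 16 or the scanner's ratio. Without Aquantile, 23 of 46 members kept their highest saline region. None of the differences between doses changed sign in 21 settings. The cause of these changes was not tested.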

Other observations

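Outside the rule, 14 probes are described in the files as MHC without an RT1 symbol, and 9 passed the filter, 5 of them below 0 over both doses. A probe described as similar to an MHC class I protein had -0.44 ± 0.09 (n = 6 regions) and was further below saline at the low dose (-0.54) than at the high dose (-0.34), a difference of 0.20 ± 0.13 (limma adjusted p = 0.035). A probe for a class I Eu-like protein had -0.35 ± 0.08, whereas one for a class I Eu-like gene had -0.07 ± 0.13 and one for a class I antigen -0.01 ± 0.04. A probe described as the class II RT1-D beta1 chain had 0.12 ± 0.09 over both doses and was not called (limma adjusted p = 0.063). At the high dose it was called higher (0.175, limma adjusted p = 0.028), unlike any class II member. A probe for a class II antigen had 0.03 ± 0.09 over both doses, and one similar to HLA class II had 0.004 ± 0.04. These probes were read after the values of the RT1 probes were known.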
